A study of Arabidopsis thaliana with 14 samples.

Results

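The response of unprimed Arabidopsis thaliana rosettes to 120 min of cold was read as the ratio of 2 libraries, C120C (120 min at 4 °C) over C0 (plants harvested at the start of the cold). All 15074 genes whose FPKM averaged 2 or more across the 14 libraries were taken, which is 54.1% of the 27861 genes of the table. FPKM is a fragment count divided by transcript length and library size, which allows an approximate comparison of levels between genes and between libraries. Counts of changed genes still depend on the scaling, as given below. The rule on the mean uses 12 further libraries and not the ratio itself, and it lies where the values are dense: MDO1 was just inside with a mean of 2.0 FPKM (1.77 in C120C, 2.32 in C0), and AT4G33620 was just outside with 1.9993 (1.86 in C120C, 2.17 in C0).

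Plants of the accession Col-0 were 28 d old when priming began, and all of them grew on through the 24 h of priming and a further 5 d before the harvests reported here. They stood in soil at 20 °C, with 10 h of light of 100 to 110 µmol m-2 s-1 and 14 h of dark. C120C plants had no earlier cold, and were moved to 4 °C in the light and harvested after 120 min. C0 plants had no earlier cold either and were harvested at the start of that cold. Besides these, the text uses 30 and 60 min of the same cold (C30C, C60C), 120 min of high light of 800 µmol m-2 s-1 at 20 °C (C120L), and the pair P120C and P0 from primed plants, which had spent those 24 h at 4 °C. Each library holds whole rosettes of at least 5 plants, pooled, and there is 1 library per condition. No ratio has a replicate and none carries a p-value. "Rose", "fell", "higher" and "lower" of a gene mean at least 1.5-fold between the 2 libraries, the threshold the study used, and log2 values are log2 (C120C/C0) unless another ratio is named. No plants without a trigger were sampled at 120 min, so the cold and the passing of the day cannot be told apart in C120C/C0. C120L, of the same clock time without cold but under high light, is given beside it where a gene follows the day. High light is itself a trigger, so C120L is not an untreated control for the time of day.

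Plants sense a sudden chill within minutes, and calcium signals and several protein kinases lead to the transcription of early genes. Best known are the C-repeat binding factors (CBF), which bind a short promoter element, the C-repeat, and switch on cold-regulated (COR) genes whose products protect membranes and proteins. The circadian clock sets how strongly this pathway can be induced at each hour, and several clock genes are themselves cold responsive.

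A ratio could be formed for 15059 genes. In C120C, 1238 genes were at least 1.5-fold higher than in C0 (8.22%) and 1351 were at least 1.5-fold lower (8.97%), while 12470 (82.8%) stayed within that range. The median gene had a log2 ratio of -0.09, and the 5th and 95th percentiles were -0.77 and 0.91. Large changes went mainly upward: 675 genes were at least 2-fold higher (4.48%) and 397 at least 2-fold lower (2.64%), 221 against 51 passed 4-fold, 90 against 9 passed 8-fold and 22 against 1 passed 32-fold. The genes that rose held 8.62% of the FPKM sum in C120C and 3.65% in C0, and those that fell held 2.54% in C120C and 4.73% in C0. Set against the median gene instead of the deposited scale, 1432 genes rose and 1033 fell, so that the share of upward calls among all calls was 58.1% in place of 47.8%. Among weakly expressed genes, with a mean of 2 to 5 FPKM, 14.3% were lower and 9.86% higher, and among genes with 100 FPKM or more 3.83% were lower and 7.28% higher.

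**Figure D1:**
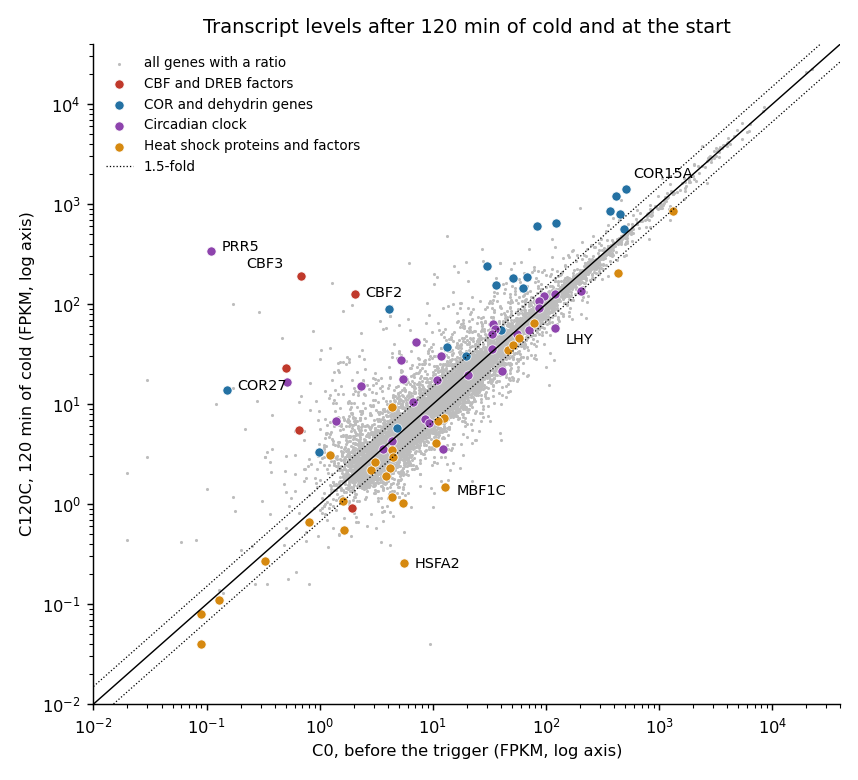
FPKM in C120C (vertical, log axis) against C0 (horizontal, log axis) for the 15059 genes with a ratio, with 4 gene lists in colour; the solid line marks equal levels and the dotted lines 1.5-fold. Most genes lie along the solid line, PRR5 at 339 FPKM in C120C and 0.11 FPKM in C0 lies farthest above it, and HSFA2 and MBF1C lie below.

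The leaf label held: the small Rubisco subunit gene RBCS1A stood at 22583 FPKM in C120C and 22446 in C0, and of 6 flower genes 5 (AP1, AP3, PI, SEP3 and LFY) were at or under 0.14 FPKM in both libraries, while AG had 1.54 in C120C and 1.96 in C0. Of 5 tested guard cell markers 1 rose (SLAC1, 0.64), of 5 phloem markers none passed 1.5-fold, and of 5 tested markers of senescing leaves 1 fell (NAP). Both tested root markers had log2 ratios of -0.57, only just within 1.5-fold, and the root-specific WOX5 was at 0.03 FPKM in C120C and 0.04 in C0. Summed levels in C120C and C0 were 110 and 108 FPKM for guard cells, 93.8 and 96.3 for phloem, 31.1 and 45.6 for roots, 1.71 and 2.11 for flowers and 30.5 and 40.4 for senescing leaves. The part of cell composition in the ratios was not tested. Steps between low FPKM values put the depth of C120C at 1.15 times that of C0, within a range of 0.93 to 1.47 over the 14 libraries. The part of depth in the ratios was not tested. In pooled rosettes, fewer cells of a type and less RNA per cell cannot be told apart. All 8 reference genes of the study stayed within 1.5-fold (log2 ratios -0.21 to 0.22).

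Promoters of 5 genes that rose are shown here because they hold short elements by which cold and clock signals are known to reach genes. The genes were picked from the CBF, COR, sugar and clock groups described below and not by the size of their ratio. All 5 come from the RefSeq assembly TAIR10.1, cover the 250 bases before the annotated start, and run 5′ to 3′ on the strand of the gene. Capitals mark matches on either strand to 4 motifs: the C-repeat (CCGAC), the evening element (AAAATATCT), the core of the abscisic acid-responsive element (ACGTG) and the core bound by CAMTA calmodulin-binding factors (CGCGT). RD29A and GOLS3 are COR-type genes, CBF2 is a CBF gene, and PRR5 and GRP7 are genes of the clock and its outputs.
RD29A: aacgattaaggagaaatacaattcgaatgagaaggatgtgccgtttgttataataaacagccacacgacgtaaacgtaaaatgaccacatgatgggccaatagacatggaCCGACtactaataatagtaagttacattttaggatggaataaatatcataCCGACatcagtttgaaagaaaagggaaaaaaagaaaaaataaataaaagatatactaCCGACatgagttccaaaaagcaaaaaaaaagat
GOLS3: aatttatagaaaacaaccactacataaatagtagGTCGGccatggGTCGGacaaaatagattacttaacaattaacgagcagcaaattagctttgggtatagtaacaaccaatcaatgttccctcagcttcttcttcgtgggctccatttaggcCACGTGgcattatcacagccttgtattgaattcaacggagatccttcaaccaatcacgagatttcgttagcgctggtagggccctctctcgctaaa
CBF2: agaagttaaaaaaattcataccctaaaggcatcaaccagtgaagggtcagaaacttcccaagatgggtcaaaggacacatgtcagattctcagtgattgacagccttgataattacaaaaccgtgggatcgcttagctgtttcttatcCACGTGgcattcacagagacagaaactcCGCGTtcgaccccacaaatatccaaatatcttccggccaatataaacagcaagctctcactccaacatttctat
PRR5: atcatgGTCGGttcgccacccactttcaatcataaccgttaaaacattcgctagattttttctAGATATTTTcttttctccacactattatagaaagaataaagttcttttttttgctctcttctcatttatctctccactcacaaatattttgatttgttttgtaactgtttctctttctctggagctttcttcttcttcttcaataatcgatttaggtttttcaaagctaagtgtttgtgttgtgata
GRP7: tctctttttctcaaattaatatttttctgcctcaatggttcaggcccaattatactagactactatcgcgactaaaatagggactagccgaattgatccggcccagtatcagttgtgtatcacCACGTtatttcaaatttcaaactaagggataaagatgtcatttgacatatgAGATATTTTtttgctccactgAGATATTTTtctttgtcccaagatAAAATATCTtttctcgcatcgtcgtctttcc
RD29A has 3 C-repeats in this stretch, and GOLS3 has 2 together with CACGTG, which holds the abscisic acid core on both strands, as ACGCGT would hold the CAMTA core. CBF2 has 1 CAMTA core, 74 to 70 bases before the start, and 1 CACGTG. GRP7 has 3 evening elements, the farthest 76 bases before the start, and 1 abscisic acid core. PRR5 has 1 evening element, 187 to 179 bases before its start, and 1 C-repeat. Coordinates are as follows. RD29A lies at chr5:21240467-21240716, plus strand. GOLS3 lies at chr1:3019389-3019638, plus strand. CBF2 lies at chr4:13016236-13016485, minus strand. PRR5 lies at chr5:8358547-8358796, minus strand. GRP7 lies at chr2:9266558-9266807, minus strand.

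Across all genes, counted from 250 bases before to 50 after the start and once per promoter, the evening element differed most between the 2 directions. It was present in 104 of 672 promoters (15.5%) of genes at least 2-fold higher in C120C, in 3 of 395 (0.759%) of genes at least 2-fold lower, and in 2.75% of all 27770 promoters, and in 2.43% of those of tested genes within 1.5-fold. The C-repeat was present in 22.5% of the higher genes' promoters, 14.7% of the lower and 15.4% of all, and among the 12459 promoters of tested genes within 1.5-fold its share was 17.1%. It was present in 8 of 19 tested COR and dehydrin genes (42.1%). The same 19 promoters held the abscisic acid core in 11 (57.9%), the evening element in 4 (21.1%) and the CAMTA core in 2 (10.5%). The abscisic acid core was present in 35.4% of the higher, 33.9% of the lower, 27.0% of those within 1.5-fold and 7356 of 27770 of all. The CAMTA core was present in 9.08% of the higher, 8.10% of the lower, 9.88% of those within 1.5-fold and 9.10% of all. Read the other way, 151 of 471 genes with an evening element rose (32.1%) and 17 fell (3.61%), with a median log2 ratio of 0.24, against 7.43% and 9.14% of the genes without it. Of 2572 genes with a C-repeat, 9.95% rose, against 7.84% without. These shares describe letters in a window, and binding was not measured.

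**Figure D2:**
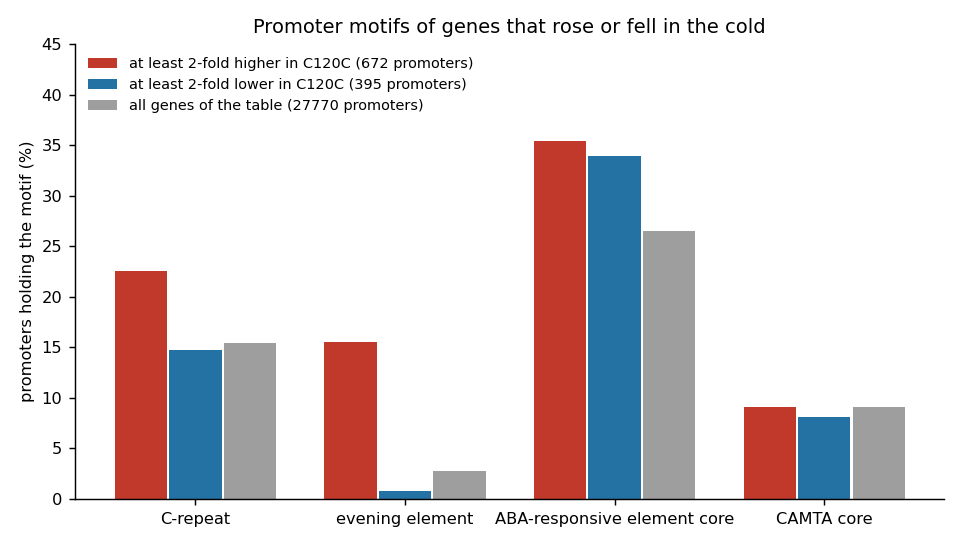
Share of promoters (vertical, %) holding each of 4 motifs on either strand, for genes at least 2-fold higher in C120C (672), genes at least 2-fold lower in C120C (395) and all genes of the table (27770). The evening element stands at 15.5% in the first group, 0.759% in the second and 2.75% overall.

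The CBF genes made up the strongest group. Of 5 tested CBF and DREB factors 4 rose and 1 fell, with a median log2 ratio of 5.54 (all tested genes: 8.22% higher, 8.97% lower, median -0.09). The counts and medians of the lists that follow stand beside the same background. CBF3 had 193 FPKM in C120C and 0.68 in C0, the highest ratio (8.15) among genes with at least 0.5 FPKM in both libraries. CBF2 had 127 FPKM in C120C and 2.04 in C0 (5.96), and CBF1 had 23.2 in C120C and 0.50 in C0 (5.54). These 3 genes are neighbours of near-identical sequence, and how fragments shared between them were assigned was not examined. CBF1 and CBF2 had come close to their final level early, with 21.3 and 111 FPKM in C60C, while CBF3 went from 30.4 FPKM in C30C to 85.0 in C60C and 193 in C120C. In C120L, under high light, CBF3 stood at 21.4 FPKM, CBF2 at 5.28 and CBF1 at 1.6. DREB2A, a related factor of drought and heat responses, had 5.56 FPKM in C120C and 0.66 in C0 (3.07). DDF1, a CBF relative that restrains gibberellin, fell to 0.91 FPKM in C120C, against 1.92 in C0, after 6.03 in C30C. CBF4, DREB2B, DREB2C and DDF2 had means under 2 FPKM, and DREB2B stood at 4.25 FPKM in C120C and 0.07 in C0.

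Genes known to act above the CBFs barely moved. Of 12 tested, SOC1 rose (27.2 FPKM in C120C, 8.31 in C0) and PIF3 fell (2.71 in C120C, 4.48 in C0), and the median was -0.05. ICE1, the bHLH activator of CBF3, had 21.5 FPKM in C120C and 19.8 in C0. CAMTA3, an activator of CBF2, had 9.40 FPKM in C120C and 8.66 in C0, and the kinase gene OST1 had 9.30 and 7.95. MYB15, a repressor of the CBFs whose mean was under 2 FPKM, stood at 0.62 FPKM in C120C and 0.64 in C0.

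Other early cold factors rose with the CBFs, 17 of 22 tested, with 1 lower and a median of 1.61. RAV1, an AP2/B3 factor, had 159 FPKM in C120C and 10.14 in C0 (3.97). CRF3, an AP2 factor of the cytokinin response, had 8.74 FPKM in C120C and 0.82 in C0. The zinc finger genes ZAT6 and ZAT10 stood at 40.1 and 77.7 FPKM in C120C and at 4.57 and 9.33 in C0. Several members were past their peak by 120 min. ZAT12 had 2.80 FPKM in C0, 12.8 in both C30C and C60C and 8.24 in C120C. WRKY40, a pathogen and abscisic acid responsive factor, had 6.82 FPKM in C0, 24.6 in C30C, 30.0 in C60C and 10.4 in C120C. SZF1, a zinc finger gene, had 21.4 FPKM in C0, 70.8 in C30C and 22.3 in C120C, so that its early change is not seen at 120 min. TEM2, a repressor of flowering, fell to 8.18 FPKM in C120C, against 15.3 in C0, while its relative TEM1 rose to 31.2 in C120C, against 5.24 in C0.

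The COR genes, the downstream arm of the pathway, rose in 16 of 19 tested members and fell in none, with a median of 1.5. COR27, counted among the 16, had a mean of 2.12 FPKM. It passed the filter on the mean through C120C (13.8) and P120C (13.3), so the filter partly fixed its rise. RD29A, whose 3 C-repeats are printed above, had 609 FPKM in C120C and 82.9 in C0 (2.88). The dehydrin gene LTI30 had 90.08 FPKM in C120C and 4.08 in C0 (4.46), and the dehydrin genes COR47 and ERD10 had 648 and 1213 in C120C, against 122 and 412 in C0. COR15A, which encodes a chloroplast protein that stabilises the inner envelope, had 1433 FPKM in C120C and 507 in C0 (1.5), and its neighbour COR15B had 242 in C120C and 30.0 in C0 (3.01). Also among the members that rose were RCI2A (2.1), LEA14 (1.84), RD29B (1.76), KIN1 (1.47), ERD7 (1.46), COR413IM1 (1.23), COR413-PM1 (1.22), KIN2 (0.84) and RAB18 (0.63). COR413IM2 (0.45), RCI2B (0.25) and ERD14 (0.22) stayed within 1.5-fold. COR15A and RD29A changed mainly after the first hour: COR15A stood at 627 FPKM in C30C and 620 in C60C, and RD29A at 97.0 in C30C and 148 in C60C. Several COR genes were as high or higher in the high light library C120L. COR15A had 3148 FPKM in C120L, KIN1 had 109 (37.1 in C120C), RD29A had 578 and COR15B had 248, whereas LTI30 (31.9 in C120L) and COR47 (277) were lower there than in C120C.

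COR27 and COR28, which act on the clock and on light signalling, stood apart from the other COR genes. COR27 had 13.8 FPKM in C120C and 0.15 in C0, and COR28 had 8.03 in C120C and was listed at 0 in C0. Up to 60 min of cold COR27 had not passed 0.32 FPKM and COR28 not 0.08, and both were under 0.25 FPKM in C120L. COR28 had a mean under 2 FPKM and is not counted among the tested genes.

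**Figure D3:**
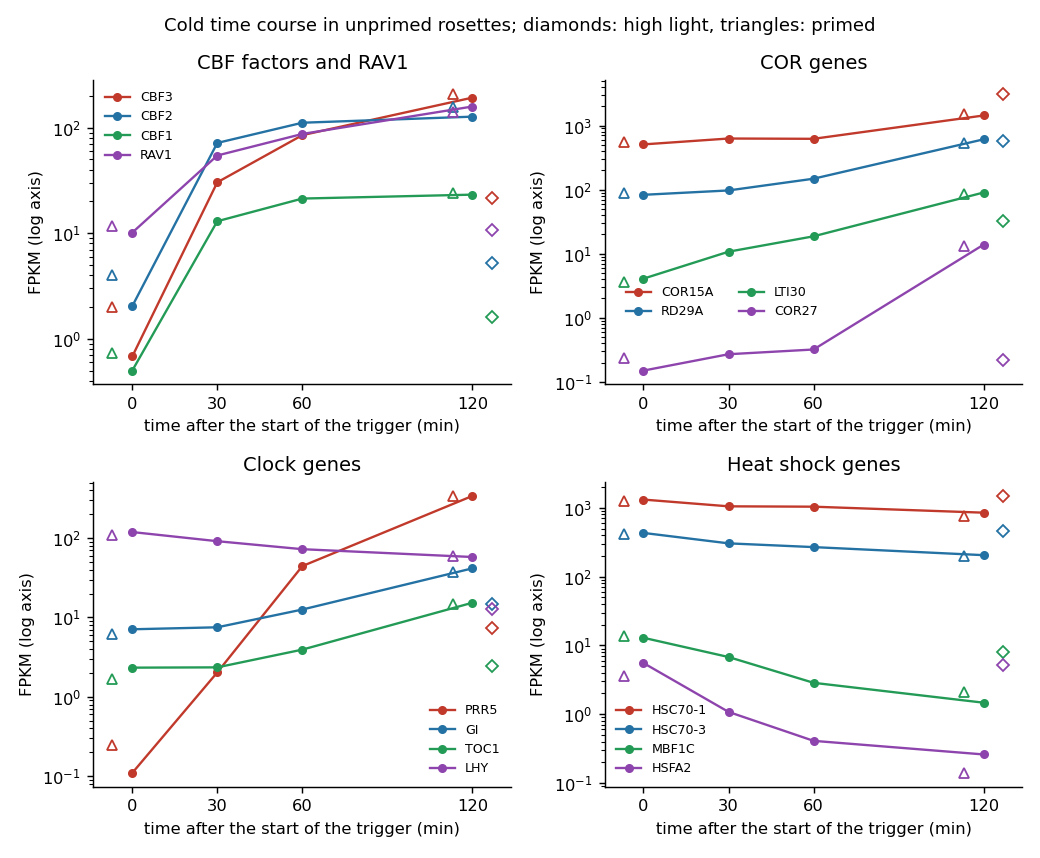
FPKM (log axis) of 16 genes in 4 panels over 0, 30, 60 and 120 min of cold in unprimed rosettes (filled circles joined by lines), with 1 library per point. Open diamonds, drawn beside 120 min, are C120L, and open triangles, drawn left of 0 and 120 min, are P0 and P120C. CBF1 and CBF2 are near their last level by 60 min, most of the rise of COR27 comes after 60 min, and HSFA2 goes down throughout.

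Genes for protective sugars, starch and lipids rose through few members. Of 11 tested genes of galactinol, raffinose, sucrose and proline metabolism 5 rose and 1 fell (median 0.24). GOLS3, the galactinol synthase of the cold response, had 241 FPKM in C120C and 15.4 in C0 (3.97), but only 55.9 in C120L. Its relatives went other ways: GOLS2 fell to 29.1 FPKM in C120C, against 47.5 in C0, and GOLS1 had 31.0 in C120C and 29.8 in C0. SIP2, a raffinose-splitting galactosidase, had 55.5 FPKM in C120C and 11.3 in C0, and the sucrose synthase gene SUS1 had 30.2 in C120C and 9.42 in C0. The proline synthesis genes P5CS1 and P5CS2 stood at 75.4 and 45.7 FPKM in C120C and 87.1 and 45.7 in C0, while ERD5, which degrades proline, had 8.60 in C120C and 3.98 in C0.

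Starch breakdown had 6 of 16 genes higher and 2 lower (median 0.51). BAM3, the main beta-amylase of the leaf chloroplast, had 911 FPKM in C120C and 199 in C0 (2.2). Cytosolic glucan phosphorylase PHS2 had 158 FPKM in C120C and 41.8 in C0, the debranching enzyme gene ISA3 had 13.8 and 4.56, and the glucan, water dikinase gene SEX1 had 42.4 and 22.5. These 4 genes were also above C0 in C120L, at 528 FPKM for BAM3, 135 for PHS2, 23.2 for ISA3 and 58.8 for SEX1. BAM9, an amylase-like protein without known activity, fell to 6.29 FPKM in C120C, against 21.9 in C0, and was at 1.67 in C120L.

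Among 13 tested membrane lipid genes 4 rose and none fell (median 0.04). ADS2, an acyl-lipid desaturase needed for chilling tolerance, had 357 FPKM in C120C and 27.2 in C0 (3.71), with 113 in C120L. The large desaturase genes did not follow it: FAD2 had 357 FPKM in C120C and 346 in C0, and FAD8 had 75.2 and 75.6. The remaining members that rose were the lipid transfer protein genes LTP4 and LTP3 and the desaturase gene ADS1 (1.68, 0.89 and 0.84). In C120L they stood at 25.2, 45.4 and 5.97 FPKM, above their 6.78, 14.2 and 2.75 in C120C. In the primed pair (P120C/P0) ADS2 and LTP3 rose (3.8 and 0.76), while LTP4 and ADS1 stayed within 1.5-fold (0.29 and 0.10).

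The clock changed in both directions. Of 29 tested genes 13 rose and 4 fell, with a median of 0.31. PRR5, a pseudo-response regulator that represses the morning genes, had 339 FPKM in C120C and 0.11 in C0. That is the highest ratio of all 15059 genes (11.59), and because of the low start its size depends on a value close to 0. PRR5 stood at 2.03 FPKM in C30C, 44.3 in C60C and 7.38 in C120L. TOC1 and GI, which like PRR5 peak later in the day, had 15.3 and 41.5 FPKM in C120C, against 2.33 and 7.09 in C0. In C120L TOC1 was at 2.47 FPKM and GI at 14.6. The evening complex genes LUX and ELF3 had 27.6 and 6.85 FPKM in C120C and 5.26 and 1.4 in C0, and in C120L they were at 19.4 and 2.81. ELF4, the third gene of that complex, had 9.54 FPKM in C120C and was listed at 0 in C0, but its mean was under 2 FPKM. ELF3, with a mean of 2.62 FPKM, passed the filter on the mean through C120C and P120C (6.52), so the filter partly fixed its rise. FKF1, a blue-light receptor of the F-box type, had 58.4 FPKM in C120C and was listed at 0 in C0, so that no ratio was formed, and it had 0.36 in C120L.

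Morning genes were split. LHY, a MYB factor of the central loop, fell to 57.7 FPKM in C120C, against 119 in C0 (-1.04), while its partner CCA1 had 126 in C120C and 120 in C0 (0.07). In C120L both were lower than in C120C, at 12.8 FPKM for LHY and 56.7 for CCA1. RVE3, RVE8 and LNK2, a MYB pair and a coactivator of the afternoon genes, fell as well (-1.78, -0.91 and -0.60). RVE2 and RVE1, other MYB factors of this family, rose to 16.5 and 17.8 FPKM in C120C, against 0.51 and 5.45 in C0, and stood at 0.32 and 0.83 in C120L. RVE2, with a mean of 3.48 FPKM, passed the filter on the mean mainly through C120C and P120C (20.0). Smaller rises were those of RVE7 (1.34), PRR9 (0.87), RVE6 (0.69), PRR7 (0.68), LKP2 (0.67) and CHE (0.60). The other 12 tested clock genes stayed within 1.5-fold, among them ZTL at 19.6 FPKM in C120C and 20.3 in C0.

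GRP7, a glycine-rich RNA-binding protein under clock control, had 485 FPKM in C120C and 13.2 in C0 (5.20), and its relative GRP8 had 257 in C120C and 51.7 in C0 (2.31). In C120L they stood at 62.7 and 109 FPKM. GRP7 was still at 11.9 FPKM in C30C and reached 47.8 in C60C, so that most of its rise fell in the second hour. The cold shock domain gene CSP1 (0.93) and the chloroplast RNA-binding protein gene CP29A (0.90) rose too, and the other 8 of the 12 RNA-binding genes stayed within 1.5-fold. GRP8, TOC1, LUX, PRR9, RVE7 and LTI30 each had 1 evening element in the window and BBX8 had 3, while GI, RVE1, RVE2 and RD29A had none there.

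Light signalling factors of the B-box and PIF families went both ways, with 8 of 19 tested genes higher and 6 lower (median 0.09). BBX22, a B-box protein of photomorphogenesis, had 185 FPKM in C120C and 11.0 in C0 (4.08), against 14.5 in C120L. BBX29, BBX28 and BBX25 stood at 52.2, 96.2 and 181 FPKM in C120C and 9.83, 39.1 and 81.1 in C0. BBX30, BBX16 and COL2 were the members that fell furthest (-1.76, -1.54 and -1.39). Of the phytochrome-interacting factors, PIF1 fell to 7.42 FPKM in C120C, against 18.4 in C0, and PIF5 to 74.8, against 128, while PIF4 had 83.9 and 110 and PIF7 had 56.3 and 49.3.

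Abscisic acid genes showed opposite movements inside the pathway, 10 of 27 tested higher and 6 lower (median 0.07). ABF1, a bZIP factor of the abscisic acid response, had 51.2 FPKM in C120C and 2.3 in C0 (4.48). Its relatives ABF3 and ABF2 fell to 17.1 and 10.6 FPKM in C120C, against 38.6 and 19.4 in C0, and ABF4 had 10.5 and 10.0. The synthesis gene NCED3 (2.11) and the catabolic genes CYP707A3, CYP707A1 and CYP707A2 (2.31, 1.96 and 1.47) rose together. Among the receptors PYL4, PYL5 and PYL8 rose (1.47, 1.84 and 0.67) and PYL7 fell (-0.60). Of the PP2C phosphatases that hold the pathway off, ABI1 and HAI2 rose (0.75 and 1.21) and HAB1 and HAI1 fell (-1.02 and -1.49). HAI1 had 0.75 FPKM in C120C, 2.1 in C0 and 18.3 in C120L.

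Jasmonate synthesis and turnover had 13 of 20 tested genes higher and none lower (median 1.02). LOX3, AOC1, AOC2 and OPR3, enzymes of the synthesis, had 89.9, 238, 218 and 197 FPKM in C120C and 29.0, 78.2, 95.9 and 99.4 in C0. CYP94C1 and ST2A, which inactivate jasmonates, rose by 2.61 and 2.43. AOC1 and OPR3 had been higher at 60 min, with 380 and 362 FPKM in C60C. The lipoxygenase gene LOX2 had 251 FPKM in C0, 867 in C60C and 388 in C120C. In C120L AOC1 and LOX2 were above C120C as well, with 583 and 2048 FPKM. Signalling and output genes had 6 of 21 higher and 3 lower (median 0.01). The repressor genes JAZ8, JAZ10, JAZ1 and JAZ9 rose (1.96, 1.56, 1.33 and 1.02) together with the storage protein genes VSP1 and VSP2 (1.83 and 1.46). MYC2, the central bHLH factor, fell to 39.3 FPKM in C120C, against 65.8 in C0, after 93.3 in C60C, and MYC4 and JAM1 fell too (-0.63 and -1.64). MYC2 stayed within 1.5-fold against the mean of C0 and P0 (-0.18 in place of -0.74) and in the primed pair (-0.37).

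Salicylic acid genes had 8 of 20 tested members higher and 2 lower (median 0.21). WRKY18, a factor of basal defence, had 102 FPKM in C120C and 17.8 in C0, against 16.7 in C120L. NIMIN1, WRKY54, PR5, WRKY38, PAD4, PCC1 and PR1 were the other members that rose (2.83 to 0.71). PR1 had 9.24 FPKM in C120C and 5.65 in C0 but 35.8 in C30C. ICS1, the main synthesis gene, fell to 6.19 FPKM in C120C, against 10.2 in C0, and the receptor gene NPR4 to 4.71, against 7.80.

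Gibberellin genes had 6 of 13 tested members higher and 2 lower (median 0.26). GA2OX1, which inactivates gibberellin, had 45.1 FPKM in C120C and 8.43 in C0 (2.42), with 5.93 in C120L, and GA2OX2 rose as well (1.53). All 3 receptor genes rose (GID1B 1.6, GID1A 0.88, GID1C 0.77). In C120L GID1B and GID1A were above C120C (6.45 and 11.1 FPKM, against 4.01 and 7.94). GID1C was below it (2.53, against 6.82). Of the DELLA repressors RGL3 rose (1.46), RGL2 fell (-1.43), and RGA and GAI stood at 33.0 and 11.2 FPKM in C120C, against 35.4 and 16.7 in C0. RGL3 was higher still in C120L, with 12.6 FPKM against 5.99 in C120C. GA3OX1, of the last step of synthesis, fell (-0.82). Auxin genes had 5 of 15 higher and none lower (median 0.31), IAA29, IAA6, IAA5 and IAA19 among them at 5.02, 11.8, 5.97 and 10.3 FPKM in C120C and 1.24, 4.88, 2.83 and 5.04 in C0. In C120L these IAA genes stood higher, at 29.5, 18.8, 36.5 and 38.8 FPKM. The auxin list's median (C120L/C0) was 0.99. YUC9 (4.46) was under 0.5 FPKM in both libraries.

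**Figure D4:**
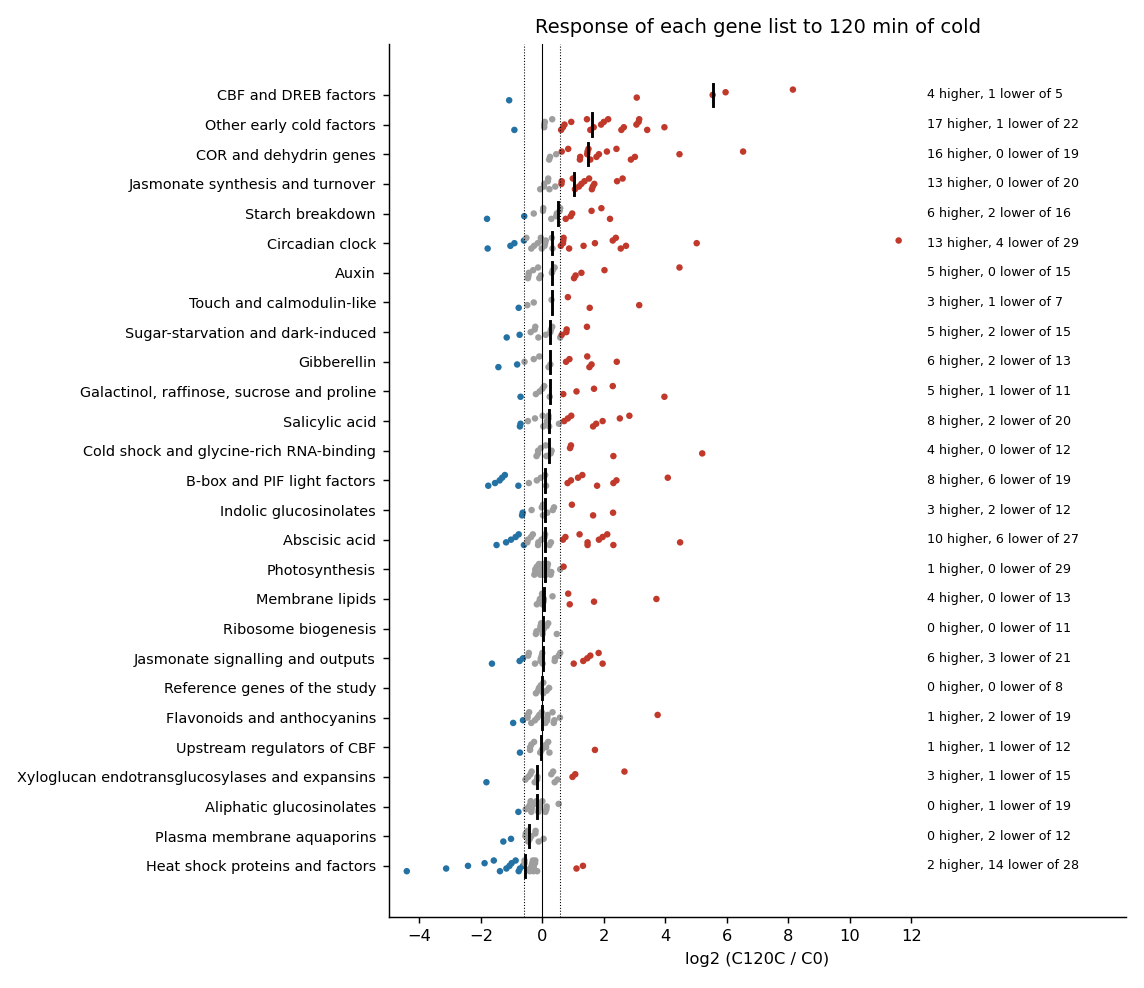
Log2 (C120C/C0) of each tested member of 27 gene lists, ordered by median. Points in red rose and points in blue fell at least 1.5-fold (dotted lines), bars mark the medians, and counts stand at the right. CBF, early cold and COR genes lie at the top with medians of 5.54, 1.61 and 1.5, and heat shock genes at the bottom with -0.58.

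Heat shock genes, chaperones and the factors that control them, had the most members lower of all the lists, 14 of 28 tested, with 2 higher and a median of -0.58. HSFA2, a heat shock factor induced by heat, fell to 0.26 FPKM in C120C, against 5.54 in C0 (-4.41), and was already at 1.08 in C30C. MBF1C, a coactivator of heat tolerance, fell to 1.47 FPKM in C120C, against 12.9 in C0 (-3.13). The chaperone genes HSP101 and HSP70 stood at 1.17 and 4.08 FPKM in C120C and 4.31 and 10.6 in C0. The abundant members fell by less: HSC70-3 had 205 FPKM in C120C and 432 in C0 (-1.07), and HSC70-1 had 850 in C120C and 1318 in C0 (-0.63). Small heat shock protein genes such as HSP17.4 (0.11 FPKM in C120C, 0.13 in C0) were near 0 in both libraries and passed the filter through the high light libraries. HSP17.6C, also near 0 (0.04 FPKM in C120C, 0.09 in C0), is counted among the 14 lower members. BAG6 and HSFA1B were the 2 members that rose (1.32 and 1.11). In C120L the list's median (C120L/C0) was 0.92, with HSP70 at 140 FPKM and HSP17.4 at 141, while HSFA2 and HSC70-3 had 5.26 and 461.

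Of 12 tested plasma membrane aquaporin genes 2 fell and none rose. PIP2;3 and PIP2;2 fell to 26.04 and 56.1 FPKM in C120C, against 62.8 and 114 in C0, and the other 10 stayed within 1.5-fold (median of all 12, -0.43). PIP2;1, the most abundant, had 1139 FPKM in C120C and 1672 in C0 (-0.55). Of 15 wall-loosening genes 3 rose and 1 fell (median -0.16). XTH33, a xyloglucan endotransglucosylase, had 7.04 FPKM in C120C and 1.11 in C0, and EXPA8, an expansin, fell to 13.1 in C120C, against 46.2 in C0. XTH33, with a mean of 2.59 FPKM, passed the filter on the mean through C120C and P120C (9.87), so the filter partly fixed its rise. Touch genes had 3 of 7 higher and 1 lower (median 0.30). CML39 had 2.93 FPKM in C120C and 0.33 in C0, and TCH2 fell to 33.1 in C120C, against 56.6 in C0, after 97.6 in C30C.

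Metabolic lists differed in how many members moved. Of 19 tested aliphatic glucosinolate genes none rose and only the regulator MYB28 fell (36.8 FPKM in C120C, 63.3 in C0), with a median of -0.19. At 30 min of cold the list's median (C30C/C0) had been -0.89, and MAM1, of side chain elongation, had 127 FPKM in C0, 59.4 in C30C, 138 in C60C and 136 in C120C. Of 12 indolic glucosinolate genes 3 rose and 2 fell (median 0.09), IGMT2 (2.3), CYP81F2 (1.65) and MYB34 (-0.66) among them. In the flavonoid list the regulator MYB111 had 30.1 FPKM in C120C and 2.23 in C0 (3.75), while its target CHS had 672 in C120C and 682 in C0, and C4H and 4CL3 fell (-0.63 and -0.95). Sugar starvation genes had 5 of 15 higher and 2 lower (median 0.26), with ASN1, a marker of low sugar, at 2.36 FPKM in C120C and 2.59 in C0. None of 11 ribosome biogenesis genes passed 1.5-fold (median 0.01), and of 29 photosynthesis genes only ELIP1 did (119 FPKM in C120C, 74.0 in C0).

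Outside the lists, the highest ratios among genes with at least 0.5 FPKM in both libraries belonged to genes with little known cold function. AT5G62360, a pectin methylesterase inhibitor, had 165 FPKM in C120C and 1.28 in C0 (7.01), with 12.25 in C120L. The DnaJ gene AT1G56300 had 54.0 FPKM in C120C and 0.87 in C0 (5.95), the amidotransferase subunit gene AT5G17460 had 86.0 and 1.61 (5.74), and the transporter gene AT1G04570 had 98.2 and 1.94 (5.66). These last 3 stood at 16.9, 18.3 and 23.7 FPKM in C120L. AT1G69140, annotated as a transcribed pseudogene, had 260 FPKM in C120C and 6.13 in C0 (5.41). AT1G20030, a thaumatin-like gene (5.07), AT5G50450, with a MYND zinc finger (4.88), BBX8, a B-box gene (4.81), and AT1G70420, with a DUF1645 domain (4.47), completed the upper end together with members named above. In C120L AT5G50450 and AT1G70420 had 1.70 and 4.97 FPKM, near their C0 levels of 1.24 and 4.29.

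Of the 40 tested genes under 0.5 FPKM in C0, 31 rose, a count that the filter on the mean partly fixes, since such genes pass it through libraries in which they are high. After PRR5 the highest in C120C were AT4G18422, a small transmembrane protein (100 FPKM in C120C, 0.17 in C0), AT1G70640, a PB1 domain protein (83.4 and 0.29), and AT1G07050, a CCT motif protein (45.5 and 0.46). TPS03, a terpene synthase, had 18 FPKM in C120C and 0.03 in C0, and it was higher still in C120L (33.0). AT5G23240, a DnaJ gene, had 14.4 FPKM in C120C and 0.17 in C0, and the RING gene AT1G49230 had 10.7 and 0.28. A start this close to 0 makes the size of the ratio uncertain: PRR5 had 336 FPKM in P120C and 0.25 in P0, and AT4G18422 had 115 in P120C and 0.62 in P0.

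At the lower end stood AT5G01765, a non-coding RNA that overlaps 2 coding genes (1.71 FPKM in C120C, 22.3 in C0, -3.71), and the RING gene AT1G14200 (0.94 and 9.94, -3.40). BT5, of the BTB and TAZ domain family, had 0.53 FPKM in C120C and 5.52 in C0 (-3.38), after 9.45 in C30C. NAP, a NAC factor of leaf senescence, had 2.17 FPKM in C120C and 14.2 in C0 (-2.71), and the high light library C120L was as low, with 2.25. The same held for AT3G26510, a PB1 domain gene, with 5.17 FPKM in C120C, 39.5 in C0 and 5.69 in C120L. The most abundant gene of this group was AT3G56360, of unknown function, at 15.6 FPKM in C120C, 106 in C0 and 22.3 in C120L. The other 8 of these 15 genes, MBF1C aside, had log2 ratios of -3.21 to -2.56, and 5 of the 15 are annotated as lncRNA or miscellaneous RNA. AT1G15825 and AT1G15830, both in this group (-2.95 and -2.73), overlap each other. Of the 26 tested genes below 0.5 FPKM in C120C, only HSFA2, AT1G26800, a RING gene (0.39 FPKM in C120C, 4.2 in C0), SAUR28, an auxin-responsive gene (0.42 and 3.46), and AT4G28755, which overlaps a gene of photosystem I, had started above 2 FPKM.

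In absolute FPKM the largest gain was that of GER1, a germin-like protein, with 3783 FPKM in C120C and 2385 in C0 (0.67). Of the 10 largest gains, COR15A, ERD10, BAM3, ELP, an extensin-like gene (1826 and 1049), and AT1G13930 (1094 and 459) also passed 1.5-fold, whereas the antenna genes LHCB1.3, LHCB1.1, LHCB1.5 and LHCB3 did not (0.08 to 0.27). Reads shared between near-identical antenna or Rubisco genes could be split in more than one way, so their single values are uncertain. Among the 10 largest losses AT1G55673, uncharacterized, had 1622 FPKM in C120C and 2622 in C0, SAMDC, of polyamine synthesis, had 692 and 1240, VTC2, of ascorbate synthesis, had 452 and 811, and HSC70-1 is given above. The other 6, RCA and RBCS1B among them, stayed within 1.5-fold. Several named genes, ABF1, BAM3, MBF1C, CBF3 and AT1G56300 among them, overlap another annotated gene, and whether the counting used strand is not given in the sources used here.

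The primed pair P120C and P0 gives the same measure in libraries that share nothing with C120C and C0, though its plants differ by their earlier cold. There 1509 genes rose (10.0%) and 1311 fell (8.71%). Of the 1238 genes that rose in unprimed rosettes, 1083 (87.5%) also rose in primed ones and 4 fell. Of 1349 that fell and had a primed ratio, 838 (62.1%) also fell and 15 rose. For genes past 2-fold in unprimed rosettes these shares were 96.9% (654 of 675) and 87.1% (344 of 395). Log2 ratios of the 2 pairs had a Pearson correlation of 0.893 and a Spearman correlation of 0.751 over 15053 genes, which are not independent replicates.

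CBF3 had 211 FPKM in P120C and 2.01 in P0 (6.71), so that the primed ratio was smaller than the unprimed one through a higher start. CBF2 had 156 FPKM in P120C and 4.05 in P0, GRP7 had 532 and 13.4, and HSFA2 had 0.14 and 3.65. By list, the primed medians were 5.01 for CBF and DREB factors, 1.42 for COR genes and -0.65 for heat shock genes. Jasmonate genes differed among themselves in the primed pair. AOC1 had 142 FPKM in P120C and 44.8 in P0, and VSP2 had 22.0 in P120C and 4.61 in P0, against 91.4 in C120C and 33.3 in C0. LOX2, JAZ8 and CYP94B3, which rose in unprimed rosettes (0.63, 1.96 and 1.37), had primed log2 ratios of 0.11, 0.21 and -0.05. For CYP94B3 the start was higher, with 7.51 FPKM in P0 and 3.25 in C0. JAZ1, JAZ9 and OPR3 had larger primed ratios (2.19, 1.88 and 1.54) than unprimed ones (1.33, 1.02 and 0.99). Their starts were lower, at 21.4, 83.1 and 39.8 FPKM in P0 and 53.6, 209 and 99.4 in C0. Their levels in P120C (97.8, 307 and 116 FPKM) were below those in C120C (134, 422 and 197). Of the tested synthesis and turnover genes 11 rose in the primed pair, against 13 in unprimed rosettes. Of the signalling and output genes 8 rose in the primed pair, against 6 in unprimed rosettes. No gene among the 15 highest and 15 lowest of the unprimed response passed 1.5-fold the other way in the primed pair.

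**Figure D5:**
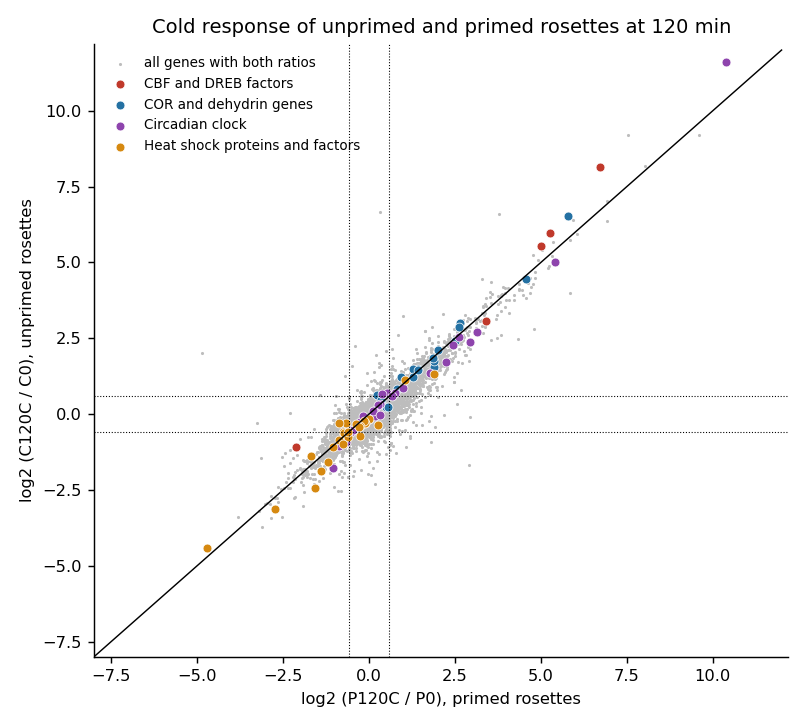
Log2 (C120C/C0) in unprimed rosettes (vertical) against log2 (P120C/P0) in primed rosettes (horizontal) for 15053 genes, with 4 gene lists in colour; the solid line marks equal ratios and dotted lines 1.5-fold. Listed genes lie near the solid line over the whole range, with PRR5 at 11.59 in unprimed and 10.39 in primed rosettes.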

How the data were processed

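RNA of pooled rosettes was enriched for polyadenylated transcripts and sequenced in 1 library per condition. The deposited values are FPKM, which the authors made from quality-filtered paired reads on the TAIR10 genome. Their methods name Bowtie2 and RSEM, the submitters' processing notes name HISAT2 2.1.0, and which of these made the table is not settled. Read totals are not part of the table, so depth was read only in relation to C0, and no interval was formed. Strandedness of the counting is not given in the sources used here.

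Ratios of C120C over C0 were formed without pseudocount or scaling for genes whose FPKM averaged 2 or more across all 14 libraries, and 1.5-fold served as the threshold. With 1 library per condition no test was possible and no p-value is given. The script that forms and counts ratios was tested on simulated data. Genes, lists (27 of pathways and 5 of cell type markers, 546 genes) and rules were chosen with earlier results of these data known. Genes were named by rule: the 15 highest and 15 lowest ratios of the 12147 genes with at least 0.5 FPKM in both libraries and 5 in one, the 8 highest in C120C from under 0.5 FPKM in C0 and the 8 highest in C0 now under 0.5 FPKM in C120C, the 10 largest FPKM differences each way, all members of the CBF, COR and clock lists, and up to 6 of each other list besides members whose role is described. Gene families by description were formed after the values were seen.

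Promoters were taken from the RefSeq TAIR10.1 assembly through locus tags, which matched for 27768 of the 27861 genes, and 4 motifs were searched on both strands from 250 bases before to 50 after the start. Overlapping gene models were read from the same annotation. Alternatives were another fold threshold, a pseudocount of 1 FPKM, other filters, 2 scalings and another start. Python 3.11.15, NumPy 2.4.6, pandas 2.3.3, SciPy 1.17.1 and matplotlib 3.10.9 were used.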

Additional observations from a re-analysis of the deposited data

Results flagged for a closer look

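HSP17.6C and AT4G28755 are listed because they fell in unprimed rosettes but were above 0 in P120C and at 0 in P0 in primed ones, so that no primed ratio could be formed. HSP17.6C, a small heat shock protein gene, had 0.04 FPKM in C120C and 0.09 in C0 (log2 -1.17), while it had 0.09 FPKM in P120C and was listed at 0 in P0. All of these levels are close to 0. AT4G28755, an uncharacterized entry that overlaps AT4G28750, had 0.04 FPKM in C120C and 9.41 in C0 (log2 -7.88), while it had 5.37 FPKM in P120C and was listed at 0 in P0. Each level is 1 library, and the difference between unprimed and primed rosettes was not tested.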

How the results depend on the processing

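Beside the reported 8.22% higher and 8.97% lower of 15059 genes, counts moved with the threshold and the filter on the mean. They were 675 higher and 397 lower of 15059 at 2-fold (4.48% and 2.64%). They were 616 and 543 of 8184 with a mean of at least 10 FPKM (7.53% and 6.63%). They were 2615 and 3302 of 21935 with no filter on the mean (11.9% and 15.1%). They stayed within 1.5 times of 1238 and 1351 with a pseudocount (1082 and 981), with at least 0.5 FPKM in both C0 and P0 (1194 and 1346), under scaling by the 8 reference genes (1244 and 1331) or by the median gene (1432 and 1033), and without non-coding and uncharacterized entries (1111 and 1173). With the mean of C0 and P0 as the start, an alternative chosen after seeing the data, 1345 rose and 1173 fell. List medians stayed on their side of 1.5-fold under the 4 alternatives run on them, apart from starch breakdown, which passed it under median scaling (0.60 against 0.51). Of 509 named or listed genes, none that was past 1.5-fold changed direction. Changes of sign within 1.5-fold were not counted. Calls were lost for 11 of the 509 with a pseudocount (WRKY40, PIF3, ADS1, PYL7, SLAC1 and, with both levels near 0, YUC9 among them), for 9 under median scaling (C4H, LNK2, MYC4, HSC70-1, PYL7 and MYB34 among them), for 14 with the other start (MYC2, AT1G55673 and WRKY40 among them) and for 1 under scaling by the reference genes. Calls were gained for 10 under median scaling, for 15 with the other start and for 1 under scaling by the reference genes. The shares found also in the primed pair ranged from 87.4% to 91.2% for higher and 62.2% to 71.0% for lower genes over the alternatives. The cause of these shifts was not tested. No paired analysis was possible because each condition has 1 library, and for the same reason no library could be left out. Low values limit the ratios most: 40 genes started under 0.5 FPKM in C0 and 26 ended under it in C120C.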

Other observations

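Grouped by the family named in the gene descriptions, which was done after the values were seen, transcription factors moved in different directions. Of 32 tested WRKY genes, factors of defence and stress, 14 rose (43.8%) and none fell, and of 26 genes with a B-box or CCT domain 13 rose and 5 fell. Of 65 bHLH genes 7 rose and 18 fell (27.7%), and of 39 SAUR-like genes, which respond to auxin, 5 rose and 13 fell (33.3%). NAC genes were split, with 5 higher and 6 lower of 36. Protein phosphatase 2C genes had 8 higher and 2 lower of 48. Large housekeeping families hardly moved: 1 of 313 ribosomal protein genes, not separated by compartment, rose and 1 fell, and of 53 RNA helicase genes 1 rose and 2 fell. These shares stand beside 8.22% higher and 8.97% lower over all tested genes.

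Non-coding entries are given by type. Of 159 lncRNA genes 23 rose and 43 fell (27.0%), and of 64 other ncRNA entries 5 rose and 19 fell (29.7%), against 8.09% higher and 8.56% lower of 14679 protein-coding genes. Of 8 miRNA precursors 2 rose and 5 fell. All 3 tested plastid-encoded entries rose, with a median log2 ratio of 2.73, in libraries enriched for polyadenylated RNA.

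Of the 15 genes without a ratio, the clock gene FKF1 (58.4 FPKM in C120C, listed at 0 in C0) and AT4G03125, a miscellaneous RNA (12.1 FPKM in C120C, listed at 0 in C0), were highest in the cold. AT3G22530, annotated as a heat shock protein, was listed at 0 in C120C and had 13.1 FPKM in C0, and the primed pair gave the same pattern with 0 in P120C and 12.4 in P0. HSP21, HSP22 and HSP23.6 were listed at 0 in both unprimed libraries.

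Among the 19 genes that passed 1.5-fold in opposite directions in the unprimed and primed pairs, AFR, an F-box gene of phytochrome A signalling, fell to 4.04 FPKM in C120C, against 6.63 in C0, but had 8.52 in P120C and 3.73 in P0. LOB, a lateral organ boundary gene, fell to 4.87 FPKM in C120C, against 8.36 in C0, but had 6.37 in P120C and 2.82 in P0. The amino acid transporter gene AT4G38250 had 2.42 FPKM in C120C and 3.77 in C0, but 11.2 in P120C and 5.99 in P0. These values come from 1 library each and were not tested.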
